A study of Mus musculus with 10 samples.

Results

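Chemokines are small secreted proteins that draw leukocytes along a gradient by binding G-protein-coupled receptors, and macrophages are a major source of them. The 10 genes described here were taken as a fixed list of symbols (Ccl2, Ccl3, Ccl4, Ccl6, Ccl7, Ccl9, Ccl12, Cxcl2, Cxcl14 and Cxcl16), and all 10 were found among the 54307 genes of the count table. They fall into functional sets. Ccl6 and Ccl9 are rodent CC chemokines that act through CCR1, Ccl3 and Ccl4 (MIP-1α and MIP-1β) are inflammatory CC chemokines, of which Ccl3 also acts through CCR1, and Ccl2, Ccl7 and Ccl12 (the MCP chemokines) call monocytes through CCR2. Cxcl2 draws neutrophils through CXCR2, Cxcl16 is a membrane-anchored ligand of CXCR6, and Cxcl14 is a chemokine best known from epithelia. Several of them, Cxcl2 and Ccl2 among them, are known as genes that NF-κB switches on within hours of a microbial stimulus, whereas Ccl6 and Ccl9 are known for steady expression in myeloid cells.

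The RNA came from bone-marrow-derived macrophages (BMDM), cells grown out of mouse marrow in medium conditioned by L-929 fibroblasts, which supply the macrophage growth factor CSF1, and harvested on day 7. There were 5 libraries of hWDFY3KI/KI mice, labelled as overexpressing human WDFY3, and 5 libraries of wild-type control (Ctrl) mice. WDFY3 is a scaffold protein of selective autophagy. All mice were male and 6 to 8 weeks old, no stimulus was given in the labels, and the labels used here do not say which promoter or locus drives the human gene. The comparison asks how WDFY3 overexpression shifts the macrophage transcriptome, here read for its chemokines. Levels are CPM (estimated counts per M of the TMM-scaled library total), given as mean ± SD over 5 libraries. Libraries are named by group and replicate number, and the numbers are not said to pair mice.

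The hWDFY3KI/KI libraries held 15.2 to 22.9 M estimated counts and the Ctrl libraries 14.6 to 36.4 M. Mouse Wdfy3 averaged 120 ± 6.19 CPM in hWDFY3KI/KI and 110 ± 9.83 CPM in Ctrl macrophages (adjusted p = 0.811 in edgeR's quasi-likelihood test). Whether reads of the human transcript were counted there was not tested. All 12 macrophage markers were expressed, led by Lyz2 at 27540 ± 2712 CPM in hWDFY3KI/KI and 23060 ± 4636 CPM in Ctrl macrophages. Of the 12, 3 had a positive and 9 a negative fold change of hWDFY3KI/KI over Ctrl, and 0 were called in edgeR. Among all tested genes 51.7% were negative and 0.0806% were called. Of these libraries 3 stood apart. hWDFY3KI/KI 4, Ctrl 1 and Ctrl 4 had a mean log2 CPM of the stromal markers of 2.85, 3.46 and 3.33, against -1.90 to 0.77 in the other 7 libraries, and they also had the highest neutrophil marker scores. The values of the chemokines in these 3 libraries are given beside the results they touch. In bulk RNA, fewer cells of a type and less RNA per cell cannot be told apart.

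The sequences before the start sites of 3 of the genes are shown here, the neighbours Ccl6 and Ccl9 because they gave by far the most chemokine RNA, and Cxcl2 because it was among the least abundant. Each is the stretch of 250 bases that ends at the base before the RefSeq start site (GRCm38.p6). Capitals mark matches, on either strand, to the NF-κB consensus (κB) and to TATAAA.
Ccl6, chr11:83593088-83593337, minus strand: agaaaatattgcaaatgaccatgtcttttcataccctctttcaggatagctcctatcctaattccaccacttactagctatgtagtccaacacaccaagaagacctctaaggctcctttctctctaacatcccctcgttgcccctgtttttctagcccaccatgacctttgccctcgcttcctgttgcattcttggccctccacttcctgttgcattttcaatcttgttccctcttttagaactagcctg
Ccl9, chr11:83578637-83578886, minus strand: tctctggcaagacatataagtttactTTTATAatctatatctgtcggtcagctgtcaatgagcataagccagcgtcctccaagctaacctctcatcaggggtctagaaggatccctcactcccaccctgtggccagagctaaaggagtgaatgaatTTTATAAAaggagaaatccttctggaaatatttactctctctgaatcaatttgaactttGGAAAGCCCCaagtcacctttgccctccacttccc
Cxcl2, chr5:90903649-90903898, plus strand: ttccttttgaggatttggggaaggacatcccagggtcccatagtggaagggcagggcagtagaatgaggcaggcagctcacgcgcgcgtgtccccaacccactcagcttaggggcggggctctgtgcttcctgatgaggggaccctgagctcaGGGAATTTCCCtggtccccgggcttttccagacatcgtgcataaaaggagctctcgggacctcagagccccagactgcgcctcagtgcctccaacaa

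The Cxcl2 window holds 2 overlapping κB matches, 1 on each strand, from position -97 to position -87 relative to the start site. The Ccl9 window holds 1 κB match, from -35 to -26, and 3 matches to TATAAA. The Ccl6 window holds neither motif. Over all 32851 RefSeq promoters, 3.90% hold a κB match and 12.4% a TATAAA match in a window of this length. The motifs TGANTCA (AP-1), TTGCNNAA (C/EBP) and GAGGAAGT (PU.1), searched on both strands, occur in 6.75%, 9.56% and 2.44% of promoters, and TGANTCA was the only one of these found in the 3 windows, once in Ccl9. In a local alignment, Ccl6 and Ccl9 shared 25 of 31 aligned positions, at -97 to -69 from the start of Ccl6 and -31 to -2 from that of Ccl9.

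Of the 10 genes, 8 lie on chromosome 11 (GRCm38), in the order Cxcl16, Ccl2, Ccl7, Ccl12, Ccl9, Ccl6, Ccl3 and Ccl4. Ccl2 (82035571 to 82037453) and Ccl7 (82045712 to 82047525) are 8.26 kb apart, and Ccl12 (82101845 to 82103400) follows 54.3 kb further on. In a second cluster, Ccl9 (83572919 to 83578636) and Ccl6 (83587882 to 83593087) are 9.25 kb apart on the minus strand. Ccl3 (83647844 to 83649355, minus strand) and Ccl4 (83662584 to 83664683, plus strand) lie 13.2 kb from each other. Cxcl16 (70453983 to 70459984, minus strand) lies outside both clusters, Cxcl2 (90903871 to 90905938, plus strand) is on chromosome 5, and Cxcl14 (56288643 to 56296551, minus strand) is on chromosome 13.

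The levels spanned a wide range, and 2 genes carried most of the chemokine RNA. Ccl6 and Ccl9 together made up 86.4 to 93.0% of the counts of the 10 genes in hWDFY3KI/KI libraries and 87.0 to 94.4% in Ctrl libraries. Per kb of the longest coding transcript, Ccl6 averaged 712 ± 200.1 CPM per kb in hWDFY3KI/KI and 840 ± 278 CPM per kb in Ctrl macrophages. Ccl9 averaged 194 ± 20.8 CPM per kb in hWDFY3KI/KI and 239 ± 24.6 CPM per kb in Ctrl macrophages. In CPM, Ccl6 ranked 73 and Ccl9 152 among the 12411 genes tested, both above 98% of them.

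Below this pair came Ccl3 and Cxcl16, with means over all 10 libraries of 43.7 and 37.5 CPM per kb, whose ranges overlapped. Ccl2, Cxcl14 and Ccl4 followed at 18.9, 17.7 and 14.2 CPM per kb. These 3 could not be put in an order, since their ranges overlapped and Ccl2 exceeded Cxcl14 in 6 of 10 libraries. Cxcl14 ran from 3.09 to 40.2 CPM per kb, into the ranges of Ccl3 and Cxcl16 above and of Ccl7 below. Ccl7 was lower at 3.12 CPM per kb, Cxcl2 averaged 0.518 CPM per kb and Ccl12 0.139 CPM per kb. The steps from Ccl6 to Ccl9, from Ccl9 to Ccl3, from Cxcl16 to Ccl2, from Ccl4 to Ccl7 and from Ccl7 to Cxcl2 were larger than the spread, with no overlap between libraries.

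**Figure D1:**
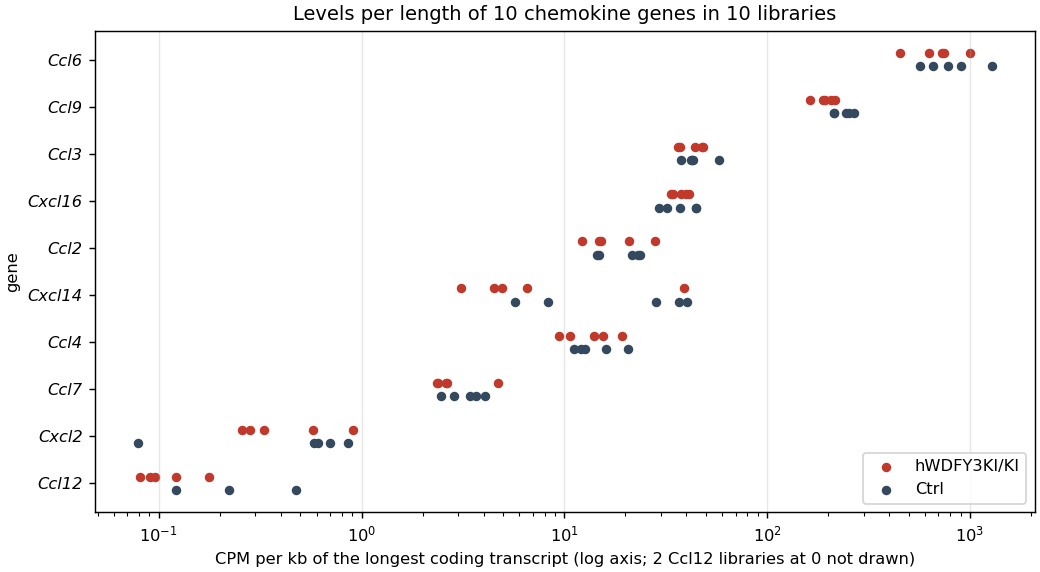
Level of each gene per kb of its longest coding transcript (log axis), with 1 point for each of the 5 hWDFY3KI/KI and 5 Ctrl libraries. Ccl6 and Ccl9 stand above the other 8 genes in every library, Cxcl14 spreads over the range of its neighbours, and Cxcl2 and Ccl12 lie under 1 CPM per kb.

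None of the chemokines passed the test between genotypes. Of the 10 genes, 9 had enough counts to be tested. By edgeR's quasi-likelihood test with Benjamini-Hochberg adjustment at 0.05, 0 of these 9 were called, beside 0.0806% of all 12411 tested genes (0.0403% higher and 0.0403% lower in hWDFY3KI/KI macrophages). At an unadjusted p under 0.05 there was 1 gene, Ccl9, beside 6.21% of all tested genes, and DESeq2 also called 0 of them, beside 0.35% of its genes. All 9 fitted log2 fold changes were negative, with a median of -0.17, beside 51.7% negative and 48.3% positive among all tested genes, whose median was -0.0046. The groups overlapped for each of the 9 genes, and 1.32% of all tested genes did not overlap. The chemokines are not independent of each other, since several vary together between libraries.

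**Figure D2:**
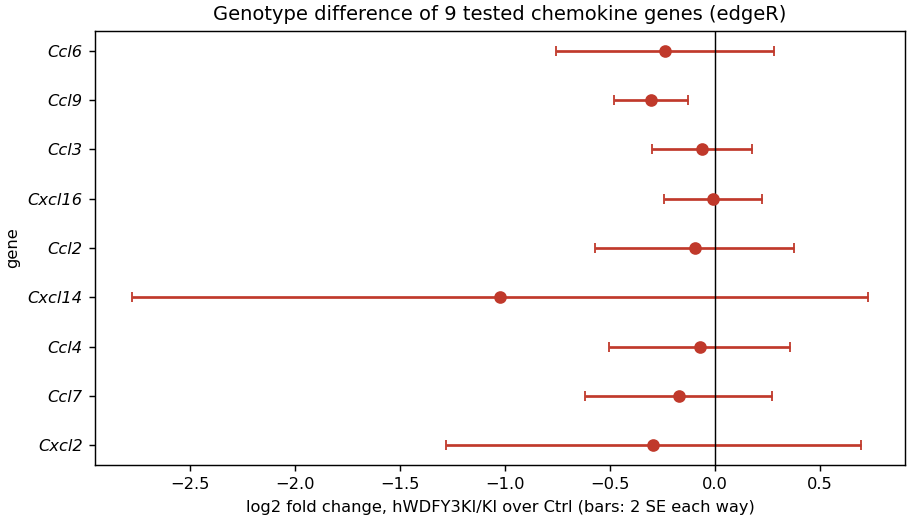
Fitted log2 fold change of hWDFY3KI/KI over Ctrl macrophages for the 9 tested genes, with bars of 2 SE each way. The bar of Ccl9 alone (-0.30, from -0.48 to -0.13) leaves out 0, and Cxcl14 has the widest bar (-1.02, from -2.78 to 0.73).

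The CCR1 ligands Ccl6 and Ccl9 were the most abundant. Ccl9 had 624, 565, 582, 650 and 487 CPM in hWDFY3KI/KI 1 to 5, against 640, 733, 764, 808 and 644 CPM in Ctrl 1 to 5. All 5 hWDFY3KI/KI libraries were below the Ctrl median, and 4 of the 5 were below the lowest Ctrl library. The exception was hWDFY3KI/KI 4, one of the libraries rich in stromal RNA, which lay just above Ctrl 1 and Ctrl 5.

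Ccl9 averaged 582 ± 62.6 CPM in hWDFY3KI/KI and 718 ± 74.0 CPM in Ctrl macrophages, a log2 fold change of -0.30 ± 0.087 (SE). The unadjusted p was 0.00416 and the adjusted p 0.561 in edgeR, so the difference did not pass over all genes. The exact permutation p, 2-sided and from all 252 ways to split the 10 libraries, was 0.0238, where the smallest possible is 0.00794. This p was the smallest of the 9 tested chemokines and is not adjusted for their number. It came from the same libraries as the edgeR p, so it is not independent of it. Without the 3 libraries rich in stromal RNA, Ccl9 averaged 565 ± 57.2 CPM in 4 hWDFY3KI/KI libraries and 714 ± 62.1 CPM in 3 Ctrl libraries (log2 fold change -0.34, adjusted p = 0.278 in edgeR, over 0.153 to 0.987 in all alternatives). These smaller groups did not overlap, which is easier to meet with fewer libraries. The share of all genes without overlap was not counted for this subset.

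Ccl6 had 1078, 910, 1049, 1442 and 649 CPM in hWDFY3KI/KI 1 to 5, against 1300.0, 951, 1124, 1849 and 822 CPM in Ctrl 1 to 5. In CPM the 3 libraries rich in stromal RNA were the 3 highest, at 1300.0 to 1849 CPM, against 649 to 1124 CPM in the other 7. Ccl6 averaged 1025 ± 288 CPM in hWDFY3KI/KI and 1209 ± 400.3 CPM in Ctrl macrophages (log2 fold change -0.24 ± 0.26, adjusted p = 0.900 in edgeR). The difference was within the spread of each group, and without those 3 libraries it was 921 ± 196 CPM in 4 hWDFY3KI/KI and 966 ± 151 CPM in 3 Ctrl libraries. With the neutrophil marker score as a covariate the sign turned, to a log2 fold change of 0.20 (adjusted p = 0.809 in edgeR).

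The ratio of Ccl6 to Ccl9 counts therefore differed between libraries. It was 1.33 to 2.22 in hWDFY3KI/KI and 1.28 to 2.29 in Ctrl libraries, and it was highest in hWDFY3KI/KI 4, Ctrl 1 and Ctrl 4 (2.22, 2.03 and 2.29). The deposited regularized log2 (rlog) values set the genotypes closer together, at 14.38 ± 0.294 in hWDFY3KI/KI and 14.47 ± 0.363 in Ctrl macrophages for Ccl6. For Ccl9 they were 13.60 ± 0.131 in hWDFY3KI/KI and 13.77 ± 0.122 in Ctrl macrophages, and 2 of the 5 hWDFY3KI/KI libraries were below the lowest Ctrl library, fewer than in CPM. The order of libraries also differed from CPM for Ccl6. Its rlog value was 14.47 in hWDFY3KI/KI 1 and 14.43 in hWDFY3KI/KI 3, against 14.42 in Ctrl 1 and 14.52 in Ctrl 3, so Ctrl 1 was not among the 3 highest libraries on that scale. The cause of this difference between the scales was not tested.

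**Figure D3:**
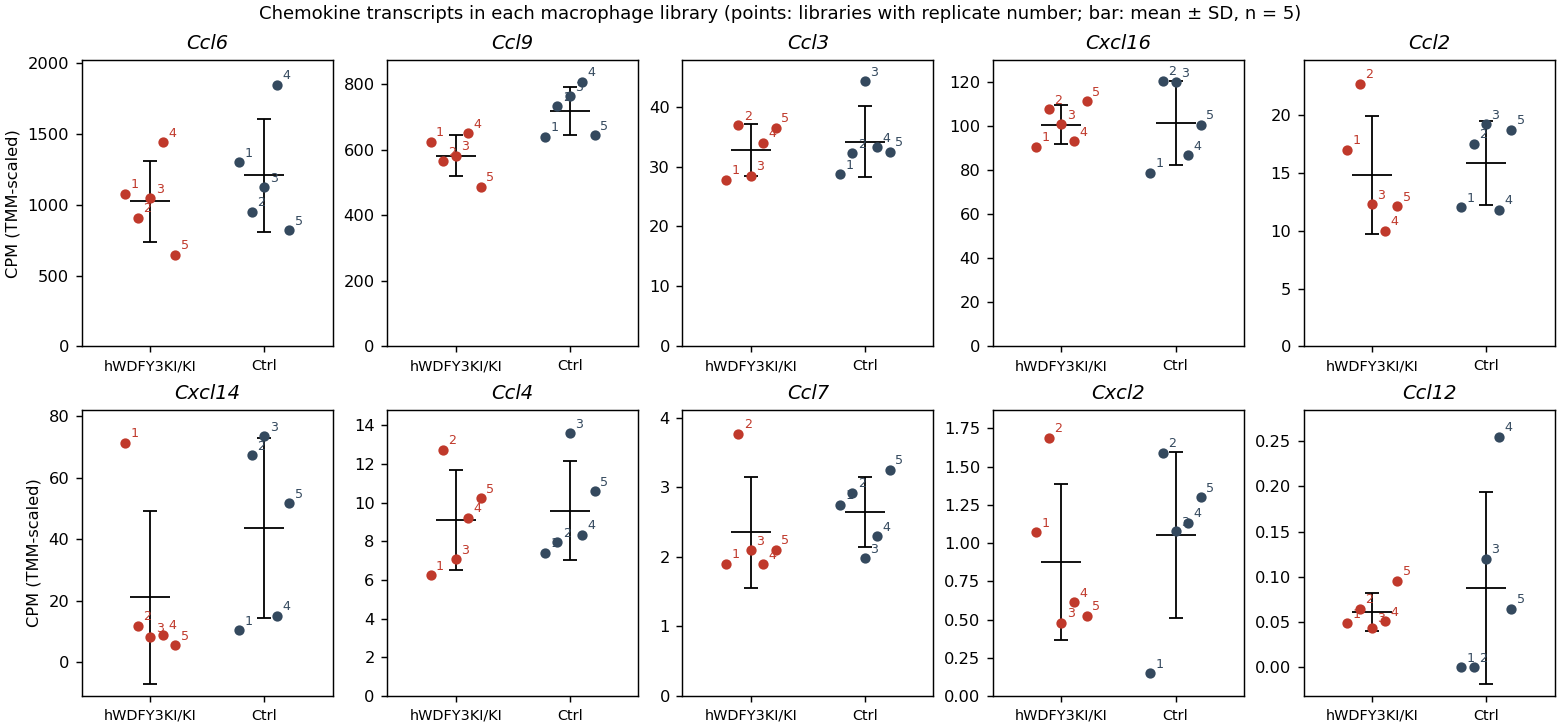
CPM of each of the 10 genes in 5 hWDFY3KI/KI libraries and 5 Ctrl libraries, with replicate numbers beside the points and mean ± SD as bars. The groups overlap in every panel, 4 of 5 hWDFY3KI/KI libraries of Ccl9 lie below all Ctrl libraries, and Cxcl14 splits into 4 libraries at 51.7 to 73.4 CPM and 6 at 5.64 to 15.2 CPM.

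Ccl3 and Ccl4, which macrophages release in inflammation, were moderately expressed. Ccl3 had 27.8, 36.9, 28.5, 34.0 and 36.5 CPM in hWDFY3KI/KI 1 to 5, against 28.7, 32.2, 44.2, 33.2 and 32.5 CPM in Ctrl 1 to 5. Ctrl 3 was the highest library and the rest of both groups shared 1 range. Ccl3 averaged 32.7 ± 4.35 CPM in hWDFY3KI/KI and 34.2 ± 5.89 CPM in Ctrl macrophages (log2 fold change -0.062 ± 0.118, with 2 SE reaching from -0.30 to 0.18, adjusted p = 0.944 in edgeR).

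Ccl4 had 6.24, 12.7, 7.07, 9.22 and 10.2 CPM in hWDFY3KI/KI 1 to 5, against 7.40, 7.95, 13.6, 8.34 and 10.6 CPM in Ctrl 1 to 5. The groups covered nearly the same range, with hWDFY3KI/KI 2 and Ctrl 3 highest. Its log2 fold change was -0.072 ± 0.215 (adjusted p = 0.970 in edgeR). Without Ctrl 3 the log2 fold changes of Ccl3 and Ccl4 were 0.045 and 0.085. The sign of Ccl4 also turned without hWDFY3KI/KI 1 (0.037) and without hWDFY3KI/KI 3 (0.0062).

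The MCP chemokines Ccl2 and Ccl7, which lie side by side, also overlapped between genotypes. Ccl2 had 17.0, 22.7, 12.3, 9.99 and 12.1 CPM in hWDFY3KI/KI 1 to 5, against 12.01, 17.5, 19.2, 11.8 and 18.7 CPM in Ctrl 1 to 5. Its 3 lowest libraries were those rich in stromal RNA, at 9.99 to 12.01 CPM, against 12.1 to 22.7 CPM in the other 7. Ccl2 averaged 14.8 ± 5.10 CPM in hWDFY3KI/KI and 15.8 ± 3.65 CPM in Ctrl macrophages (log2 fold change -0.096 ± 0.237, adjusted p = 0.960 in edgeR).

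Ccl7 had 1.90, 3.77, 2.10, 1.90 and 2.10 CPM in hWDFY3KI/KI 1 to 5, against 2.75, 2.92, 1.98, 2.30 and 3.25 CPM in Ctrl 1 to 5. One library, hWDFY3KI/KI 2, was above every Ctrl library, and the other 4 hWDFY3KI/KI libraries were below the Ctrl median. The log2 fold change was -0.17 ± 0.22 (adjusted p = 0.912 in edgeR), and without hWDFY3KI/KI 2 it was -0.40 with an unadjusted p of 0.0530 and an adjusted p of 0.958, over 0.760 to 0.996 in all alternatives.

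Ccl12, the third MCP gene, was close to absent and was not tested. It had 1, 1, 1, 1 and 2 counts in hWDFY3KI/KI 1 to 5, against 0, 0, 2, 9 and 1 counts in Ctrl 1 to 5, or 18 counts in all. Counts of 0 in Ctrl 1 and Ctrl 2 allow levels of up to 0.147 and 0.129 CPM, at 3 counts a library. A genotype difference of Ccl12 was not detectable at this depth.

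Cxcl14 varied most between libraries among the 9 tested genes, with the highest library 13.01 times the lowest. It had 71.3, 11.96, 8.25, 8.97 and 5.64 CPM in hWDFY3KI/KI 1 to 5, against 10.4, 67.2, 73.4, 15.2 and 51.7 CPM in Ctrl 1 to 5. The 10 libraries split into 4 with 51.7 to 73.4 CPM and 6 with 5.64 to 15.2 CPM, and 1 of the 5 hWDFY3KI/KI and 3 of the 5 Ctrl libraries were in the upper set. Both Ctrl libraries in the lower set, and hWDFY3KI/KI 4, were the libraries rich in stromal RNA, so high stromal RNA did not go with high Cxcl14. The other 3 hWDFY3KI/KI libraries in the lower set had stromal scores of 0.55, 0.77 and -1.90.

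Cxcl14 averaged 21.2 ± 28.1 CPM in hWDFY3KI/KI and 43.6 ± 29.2 CPM in Ctrl macrophages, with medians of 8.97 and 51.7 CPM. The log2 fold change was -1.02 ± 0.88 (adjusted p = 0.881 in edgeR), and the exact 2-sided permutation test gave p = 0.127. A single library decided its size. Without hWDFY3KI/KI 1 the log2 fold change was -2.33 (unadjusted p = 0.0102, adjusted p = 0.724 in edgeR, over 0.648 to 0.987 in all alternatives). With the neutrophil score as a covariate it was -2.05 (unadjusted p = 0.0474, adjusted p = 0.648). Among the 4 hWDFY3KI/KI and 3 Ctrl libraries not rich in stromal RNA, Cxcl14 averaged 24.3 ± 31.4 CPM in hWDFY3KI/KI and 64.1 ± 11.2 CPM in Ctrl macrophages.

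Cxcl16, which is also known as a scavenger receptor for oxidised lipoprotein and is shed by ADAM10, spanned the narrowest range of the 9 tested genes, with the highest library 1.53 times the lowest. It had 90.8, 108, 101, 93.2 and 111 CPM in hWDFY3KI/KI 1 to 5, against 79.0, 121, 120.1, 86.9 and 101 CPM in Ctrl 1 to 5. The hWDFY3KI/KI libraries lay within the range of the Ctrl libraries. It averaged 101 ± 8.92 CPM in hWDFY3KI/KI and 101 ± 18.9 CPM in Ctrl macrophages (log2 fold change -0.0090 ± 0.117, with 2 SE reaching from -0.24 to 0.23, adjusted p = 0.996 in edgeR). The 3 libraries rich in stromal RNA had 79.0 to 93.2 CPM, against 90.8 to 120.7 CPM in the rest. Without them Cxcl16 averaged 103 ± 9.04 CPM in 4 hWDFY3KI/KI and 114 ± 11.3 CPM in 3 Ctrl libraries. These groups overlapped (log2 fold change -0.15, adjusted p = 0.827 in edgeR).

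Cxcl2 was low in these macrophages. It had 22, 26, 11, 12 and 11 counts in hWDFY3KI/KI 1 to 5, against 3, 37, 18, 40 and 20 counts in Ctrl 1 to 5. Ctrl 1 was the lowest library at 0.147 CPM, and hWDFY3KI/KI 2 the highest at 1.69 CPM. The log2 fold change was -0.29 ± 0.49 (adjusted p = 0.936 in edgeR). It made up 0.0268 to 0.101% of the counts of the 10 genes in hWDFY3KI/KI libraries and 0.00707 to 0.0822% in Ctrl libraries.

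The genes varied together in small sets rather than as a block. Over the 36 pairs of the 9 tested genes, Pearson's r of log2 CPM across the 10 libraries ranged from -0.61 to 0.92 with a median of 0.31, and 10 pairs were negative. These are descriptions over libraries that differ in genotype, depth and stromal RNA. The neighbours Ccl3 and Ccl4 had the highest value (r = 0.92, Spearman's rho = 0.93, and r = 0.86 over 8 libraries without the 2 farthest from the median of Ccl3). Their count ratio stayed between 2.89 and 4.46 in hWDFY3KI/KI and between 3.07 and 4.05 in Ctrl libraries.

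The other neighbours were less tightly tied. Ccl6 and Ccl9 had r = 0.70 (rho = 0.65), and r = 0.13 over 8 libraries without the 2 farthest from the median of Ccl6. The 5 hWDFY3KI/KI libraries had the same order in both genes, and the Ctrl libraries differed in order by Ctrl 1, which was lowest in Ccl9 and second highest in Ccl6. Ccl2 and Ccl7 had r = 0.57 (rho = 0.47), and r = 0.18 over 8 libraries. Ccl2 went with Cxcl2 (r = 0.70, rho = 0.62, and 0.68 over 8 libraries), a gene on another chromosome. It also went with Cxcl14 (r = 0.65, rho = 0.54), and their r of 0.94 over 8 libraries was the highest such value of any pair. Within genotypes the r of Ccl2 with Cxcl14 was 0.46 in hWDFY3KI/KI and 0.96 in Ctrl libraries. The lowest value was between Ccl6 and Cxcl16 (r = -0.61, rho = -0.59, and -0.51 over 8 libraries).

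**Figure D4:**
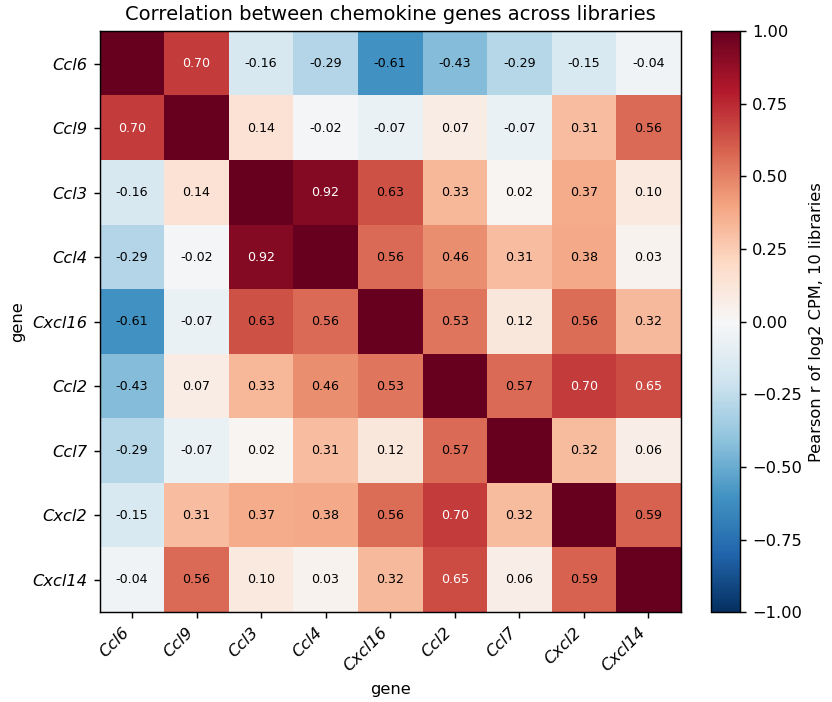
Pearson's r of log2 CPM between each pair of the 9 tested genes over 10 libraries (5 hWDFY3KI/KI and 5 Ctrl), coloured from -1 to 1. Ccl3 with Ccl4 is the strongest pair at 0.92, and Ccl6 with Cxcl16 the most negative at -0.61.

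The stromal, neutrophil and monocyte markers moved with some of these values. The summed level of the 16 stromal markers was 12.4 to 144 CPM in hWDFY3KI/KI and 15.1 to 215 CPM in Ctrl libraries, with 2 positive and 12 negative of 14 tested. The 15 neutrophil markers summed to 154 to 299.6 CPM in hWDFY3KI/KI and 177 to 374 CPM in Ctrl libraries, with all 9 tested genes negative. Most of this sum came from Mmp8 and Csf3r. Mmp8 averaged 103 ± 58.3 CPM in hWDFY3KI/KI and 151 ± 77.3 CPM in Ctrl macrophages. Csf3r averaged 89.5 ± 15.7 CPM in hWDFY3KI/KI and 93.1 ± 14.2 CPM in Ctrl macrophages. The 8 monocyte markers summed to 62.6 to 377 CPM in hWDFY3KI/KI and 140.4 to 625 CPM in Ctrl libraries, with 7 of 8 negative. Most of this sum was Fn1, at 192 ± 108 CPM in hWDFY3KI/KI and 253 ± 223 CPM in Ctrl macrophages. None of the genes of these 3 lists passed over all genes (0 in edgeR), and none of the lists had a member at 0 in every library.

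Of all libraries, Ctrl 4 had the highest monocyte sum (625 CPM) and the highest Ccl6, and hWDFY3KI/KI 5 had the lowest monocyte sum (62.6 CPM) and the lowest Ccl6 and Ccl9. The r of Ccl6 with the mean log2 CPM of the monocyte markers was 0.93 over 10 libraries, and that of Ccl9 was 0.57. Other lists also moved with these genes. For Ccl6, r was 0.86 with the neutrophil, 0.82 with the stromal, 0.81 with the macrophage and 0.78 with the lymphocyte markers. For Ccl9, r was highest with the lymphocyte markers (0.80), followed by 0.64 with the neutrophil, 0.61 with the macrophage and 0.44 with the stromal markers. The lymphocyte score rested on 4 of 9 listed genes, the others being too low to test. The other chemokines did not rise with the stromal score. Their r with it was -0.66 for Cxcl16, -0.53 for Ccl2, -0.385 for Cxcl2 and -0.38 for Cxcl14. It was -0.24 for Ccl3, -0.23 for Ccl4 and 0.076 for Ccl7. For Cxcl16, r was also -0.66 with the monocyte and -0.54 with the neutrophil markers. The part of the cells that these lists stand for in the chemokine levels was not tested beyond the covariate fits. With the stromal score as a covariate, the log2 fold change was -0.28 for Ccl9 and -0.044 for Ccl6. With the neutrophil score it was -0.23 for Ccl9 (unadjusted p = 0.0277, adjusted p = 0.572 in edgeR).

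**Figure D5:**
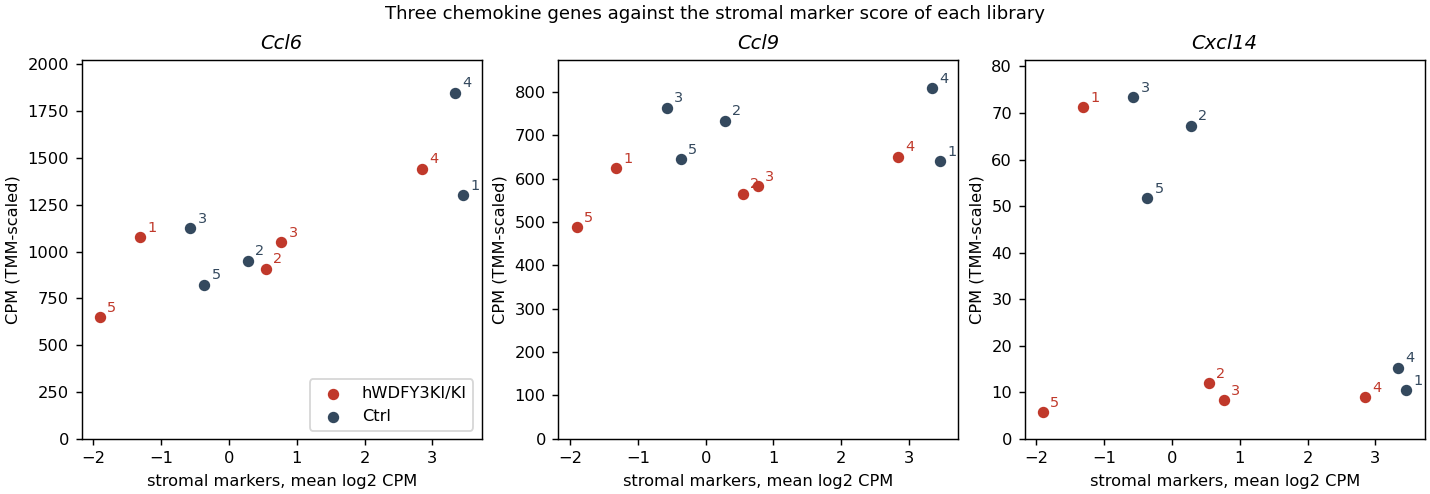
CPM of Ccl6, Ccl9 and Cxcl14 against the mean log2 CPM of the stromal markers, with 1 numbered point for each of 5 hWDFY3KI/KI and 5 Ctrl libraries. The 3 libraries with a score above 2.8 have the highest Ccl6 (1300.0 to 1849 CPM) and a Cxcl14 of 8.97 to 15.2 CPM.

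The remaining marker lists were also led by a few genes. The dendritic cell markers summed to 506 to 1031 CPM in hWDFY3KI/KI and 543 to 709 CPM in Ctrl libraries, nearly all of it Itgax, an integrin that BMDM share. The lymphocyte markers summed to 24.7 to 52.6 CPM in hWDFY3KI/KI and 31.4 to 45.3 CPM in Ctrl libraries, mostly Cd4. The endothelial markers summed to 95.7 to 140.4 CPM in hWDFY3KI/KI and 79.6 to 129 CPM in Ctrl libraries, mostly Vwf. Mast cell and basophil markers summed to at most 7.65 CPM and platelet and erythroid markers to at most 11.96 CPM, with Tpsb2 and Alas2 among the genes at 0 in every library.

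The genes whose levels followed a chemokine most closely were taken by the highest r of log2 CPM over the 10 libraries. For Cxcl14 they were Abca9, a lipid transporter, Dapk1, a death-associated kinase, and Aph1b, a subunit of γ-secretase, with r of 0.97, 0.96 and 0.95. Abca9 had 64.2, 47.7, 45.4, 39.5 and 40.4 CPM in hWDFY3KI/KI 1 to 5, against 45.4, 62.4, 64.6, 44.4 and 63.9 CPM in Ctrl 1 to 5. The 4 libraries high in Cxcl14 were also the 4 highest in Abca9, so this r reflects the gap between 2 sets of libraries.

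For Ccl6 the closest genes were the peroxiredoxin Prdx5 (r = 0.97), the inositol kinase Itpk1 (0.96) and the transcription factor Klf10 (0.96). For Ccl9 they were the transcription factor Batf3 (0.94), the carbonic anhydrase Car2 (0.94) and Traf3ip3 (0.93). Znfx1 (0.96) and Zxda (0.95) were closest to Ccl3, and Zxda (0.95) and Ccl3 itself (0.92) to Ccl4. Arhgap17, a GTPase-activating protein, followed Cxcl16 (0.96), the tumour suppressor Trp53 followed Ccl2 (0.94), Il18rap, a chain of the interleukin-18 receptor, followed Cxcl2 (0.925), and Eef1akmt1 followed Ccl7 (0.91). Each of the 9 genes had such a partner at an r of 0.91 or more among 12411 genes, and no shared role is read from them.

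The receptors of these chemokines were unevenly represented. Ccr1, the receptor of Ccl6, Ccl9 and Ccl3, averaged 126 ± 36.7 CPM in hWDFY3KI/KI and 134 ± 62.2 CPM in Ctrl macrophages. Ccr2, the receptor of the MCP chemokines, averaged 23.2 ± 8.95 CPM in hWDFY3KI/KI and 28.4 ± 11.5 CPM in Ctrl macrophages. Cxcr2 averaged 1.57 ± 0.419 CPM in hWDFY3KI/KI and 2.06 ± 1.11 CPM in Ctrl macrophages, and Cxcr6, the receptor of Cxcl16, had 56 counts in all 10 libraries. Cxcr4, the receptor of Cxcl12, averaged 129 ± 32.4 CPM in hWDFY3KI/KI and 99.1 ± 40.8 CPM in Ctrl macrophages. Of 24 receptors 12 were tested, 7 with a positive and 5 with a negative fold change (median 0.25), and 0 passed in edgeR or in DESeq2. At an unadjusted p under 0.05 there were 0 in edgeR, beside 6.21% of all tested genes, and 1 in DESeq2. Over all genes in DESeq2, 902 had such a p, where 14012 genes had an adjusted p. The share of all tested genes that passed was 0.0806% in edgeR and 0.35% in DESeq2, which is also the background for the lists below.

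Most other chemokines were scarce. Of 28 further chemokine genes, 8 were tested, of which 7 had a negative fold change (median -0.31). The most abundant was Pf4, at 3.67 ± 1.10 CPM in hWDFY3KI/KI and 4.92 ± 2.47 CPM in Ctrl macrophages. Ccl22, a ligand of CCR4, averaged 2.54 ± 0.749 CPM in hWDFY3KI/KI and 2.99 ± 0.721 CPM in Ctrl macrophages. Ccl25, a ligand of CCR9, averaged 1.73 ± 0.242 CPM in hWDFY3KI/KI and 2.39 ± 0.157 CPM in Ctrl macrophages (log2 fold change -0.47 ± 0.16, unadjusted p = 0.0111, adjusted p = 0.700 in edgeR). Its groups did not overlap, as was so for 1.32% of all tested genes. In this list 0 genes passed in edgeR or DESeq2, and 1 had an unadjusted p under 0.05 in each. Over all genes, 6.21% had such a p in edgeR. In DESeq2 902 genes had one, where 14012 genes had an adjusted p.

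The machinery that governs chemokine transcripts and proteins showed no called gene either. A list of 38 genes covered chemokine induction, with NF-κB subunits and their inhibitors, AP-1 factors and cytokine receptors among them. Of these 37 were tested, 14 with a positive and 23 with a negative fold change (median -0.010). The list mixes activators and inhibitors, so these signs do not give a direction of induction. Tnfrsf1b, a TNF receptor, averaged 806 ± 93.2 CPM in hWDFY3KI/KI and 736 ± 61.6 CPM in Ctrl macrophages, Atf3, a stress-induced repressor, 581 ± 27.6 CPM in hWDFY3KI/KI and 581 ± 35.3 CPM in Ctrl macrophages, and Stat6, the factor of interleukin-4 signalling, 193 ± 9.69 CPM in hWDFY3KI/KI and 195 ± 6.47 CPM in Ctrl macrophages. None of the 37 had an unadjusted p under 0.05 in edgeR or DESeq2 (0 genes). Over all tested genes, 6.21% had one in edgeR. In DESeq2 902 genes did, where 14012 genes had an adjusted p.

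All 14 genes of mRNA decay and stability were tested, 8 with a positive and 6 with a negative fold change (median 0.054). Zfp36l2, a relative of the ARE-binding decay factor tristetraprolin, averaged 389 ± 11.5 CPM in hWDFY3KI/KI and 370.0 ± 18.2 CPM in Ctrl macrophages, the scaffold Cnot1 134 ± 5.18 CPM in hWDFY3KI/KI and 135 ± 6.77 CPM in Ctrl macrophages, and the decay factor Khsrp 77.0 ± 2.42 CPM in hWDFY3KI/KI and 74.9 ± 10.3 CPM in Ctrl macrophages. Of 18 genes of chemokine processing and retention, mostly proteases and scaffolds, 16 were tested, 6 with a positive and 10 with a negative fold change (median -0.069). Among them the cathepsin Ctsb averaged 16020 ± 1557 CPM in hWDFY3KI/KI and 14370 ± 724 CPM in Ctrl macrophages, the macrophage elastase Mmp12 10310 ± 2827 CPM in hWDFY3KI/KI and 11910 ± 3832 CPM in Ctrl macrophages, and the cathepsin Ctss 8296 ± 569 CPM in hWDFY3KI/KI and 8148 ± 669 CPM in Ctrl macrophages. In each of these 2 lists 0 genes passed and 2 had an unadjusted p under 0.05, in edgeR and in DESeq2. Such a p was found for 6.21% of all tested genes in edgeR. In DESeq2 it was found for 902 genes, where 14012 genes had an adjusted p.

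Some counts may be shared with other transcripts. The longest Cxcl16 transcript shares 552 bases with Zmynd15, a gene on the opposite strand that had 383 counts in all 10 libraries, and whether the counting used strand is not given in the sources. E230016K23Rik, a non-coding gene with 98 counts, runs across Ccl6 on the opposite strand. A stretch of 320 bases of Cxcl2 matches Cxcl3 at 91.6% identity, and Cxcl3 had 31 counts. Ccl9 holds a stretch of up to 247 bases that matches transcripts of 422 genes at 75% identity or more, and Ccl6 matches Ccl9 at 75.5% over 290 of 1440 bases.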

How the data were processed

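Per the labels' protocols, poly(A)+ libraries that keep strand were read from both ends (100 bp), with a plan of 20 M reads each. The authors deposited estimated counts per Ensembl gene (Salmon 1.6.0, per the submitters' processing notes) and log2 values on the rlog scale (DESeq2 1.34.0, per the same notes). Salmon's settings, its use of strand and its annotation are not given in the sources. The processing notes name GRCm39 and mm10; the coordinates printed are those of GENCODE M21 and RefSeq (GRCm38), joined by gene ID.

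Estimated counts were rounded and tested with edgeR 4.0.16 (R 4.3.3): TMM factors, filterByExpr (minimum count 10, minimum total 15), robust quasi-likelihood F-test over 10 libraries, no covariates, adjusted p over 12411 genes, threshold 0.05. SE is the fold change divided by the root of F, and log2 CPM uses a prior count of 2. Intervals are 2 SE, and floors are 3 counts, which cover counting error only. The tests were checked on simulated counts. Replicates are labelled as separate mice, and no 2 libraries of a group were copies (chi-square per gene 8.77 to 54.5 between pairs).

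Genes and lists were chosen with earlier results of these data known. All 10 chemokines are named, with the 3 most abundant tested genes of each pathway list, the leading marker genes and the 3 genes most like each chemokine (predicted genes left out). Cxcr2, Cxcr6, Ccr2 and the overlapping genes were named after their values were seen. Some genes that these rules would name are not reported here. RefSeq promoters were matched for 6 of 10 genes.

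Alternatives tried were upper-quartile or RLE factors, DESeq2 1.42.0, limma-voom (limma 3.58.1), limma-trend on the rlog table, no filter, 1 CPM in 5 libraries, no robust estimation, replicate block, a stromal or neutrophil score as covariate, unrounded counts, and leaving out each library or the 3 richest in stromal RNA.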

Additional observations from a re-analysis of the deposited data

Results flagged for a closer look

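In 3 of 20 sets of 5 libraries, 1 library lay far from the others by Dixon's criterion (a gap of over 0.71 of the range), where chance gives about 1 in 20. Cxcl14 had 71.3 CPM in hWDFY3KI/KI 1, and the next hWDFY3KI/KI library had 11.96 CPM. Ccl7 had 3.77 CPM in hWDFY3KI/KI 2, and the next had 2.10 CPM. Ccl3 had 44.2 CPM in Ctrl 3, and the next Ctrl library had 33.2 CPM, a gap of 0.711 of the range.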

How the results depend on the processing

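None of the 23 alternatives gave a called chemokine (0 in each, with adjusted p by edgeR, DESeq2 or limma). Of 207 values of the 9 tested genes, 195 kept the sign and 12 turned it. Ccl9, Ccl7, Cxcl2 and Cxcl14 kept a negative sign throughout, and Ccl9 had an unadjusted p under 0.05 in all 23, with log2 fold changes from -0.35 to -0.17. Ccl6 turned to 0.196 with the neutrophil score as covariate, and Cxcl16 to 0.0065 in limma-voom and 0.0062 under the replicate block. The cause was not tested. Leaving out 1 library gave a range of -0.30 to 0.013 for Ccl2, -0.12 to 0.045 for Ccl3, -0.22 to 0.085 for Ccl4 and -0.085 to 0.061 for Cxcl16.

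Over all genes edgeR called 10, 5 higher and 5 lower in hWDFY3KI/KI. DESeq2 called 49, and without the 3 libraries richest in stromal RNA there were 38. Leaving out 1 library gave 6 to 23, with 6 without hWDFY3KI/KI 1, 2 or 3 or Ctrl 2 and 23 without hWDFY3KI/KI 4. With the replicate number as a block 12 genes were called. Same-numbered libraries deviated together with r of -0.20 to 0.51. For hWDFY3KI/KI 4 and 5 the closest Ctrl library had the same number, and for hWDFY3KI/KI 1, 2 and 3 it did not. Whether the numbers pair mice or share a batch was not tested. Under the block Ccl6 had an unadjusted p of 0.00494 (adjusted p = 0.395, over 0.395 to 0.996 in all alternatives). Low counts limit Ccl12 and Cxcl2.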
